A study of Mus musculus with 9 samples.

Results

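The opioid receptors and the precursors of their peptides were followed in RNA sequenced from dorsal root ganglia (DRGs) of E18.5 mouse embryos. They are 7 of the 55247 genes of the deposited table, found by their gene symbols: the receptor genes Oprd1 (delta), Oprm1 (mu), Oprk1 (kappa) and Oprl1 (nociceptin), and the precursor genes Penk, Pdyn and Pnoc. They are called the members here. The study asked which transcripts change in sensory ganglia when the transcription factor Meis2 is inactivated in neurons that express Isl1. Each of its 3 genotypes had 3 libraries. The WT group had intact Isl1 and Meis2. The Isl1Cre/+ group had 1 Isl1 copy that drives Cre recombinase. In the Isl1Cre/+::Meis2LoxP/LoxP group, referred to as the mutant, the same Cre allele was combined with LoxP sites around exon 8 of both Meis2 copies. Neither control genotype carried a floxed Meis2 allele by its label, no treatment is named by the labels, and the Cre allele is shared by Isl1Cre/+ and mutant embryos only. Isl1 is expressed by sensory neurons of the DRG in general and also by other neurons outside it, so the Cre driver was not selective for the neurons that use opioid receptors. Sex, litter, axial level and pooling of embryos are not given by the labels, so p-values measure the spread between these libraries, which may be technical in part. The reporting checklist of the paper calls its replicates biological in general, without naming these libraries.

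Opioid receptors are G protein-coupled receptors of the Gi/o family. On the terminals of primary sensory neurons they inhibit adenylyl cyclase, reduce opening of voltage-gated calcium channels and so reduce transmitter release. This contributes to opioid analgesia, and the cell bodies of these neurons lie in the ganglion. Penk gives enkephalins, which act on delta and mu receptors, Pdyn gives dynorphins, which prefer kappa receptors, and Pnoc gives nociceptin, the ligand of the receptor encoded by Oprl1. In adult mice, mu receptors are best known from peptidergic nociceptors and delta receptors also from myelinated mechanoreceptors.

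Libraries held 23854607 to 29103444 counts. Mutant library 2 and WT library 1 stood apart, with median rank correlations with the other libraries of 0.979 and 0.981 across genes, against 0.991 to 0.995 for the remaining 7, and the fold changes of Oprd1, Oprk1, Penk and Gng5 are also given without 1 or both of them. Meis2 had 1004 to 1084 counts in mutant libraries against 2537 to 2919 in the controls, which leaves the mutant at 0.412 of the control level. Isl1, which loses 1 intact copy to Cre, had 260 ± 30.2 CPM (mean ± SD, n = 3) in WT, 185 ± 19 in Isl1Cre/+ and 187 ± 24.6 in the mutant, where CPM are counts per 1000000 counts of a library after scaling by the TMM method. All 10 sensory neuron markers examined were detected in each library, with a summed level of 9220 to 12400 CPM. Mutant library 2 had the highest sums of erythroid (3940 CPM) and skeletal muscle markers (1840 CPM), where the remaining libraries had 341 to 2200 and 57.5 to 793 CPM.

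Oprd1 was the only opioid gene whose transcripts were lower in the mutant by the criterion of the study, which asks for a 1.2-fold difference or more with an unadjusted p under 0.05. The sequences just upstream of Oprd1 and Oprm1 are shown because these receptor genes gave nearly equal counts in controls while only Oprd1 met the criterion in a comparison. They are the 250 bases before the annotated start in RefSeq on GRCm38.p6, on the strand of each gene, with every CG dinucleotide in capitals. The window of Oprd1 is chr4:132144487-132144736 on the minus strand and that of Oprm1 is chr10:6788320-6788569 on the plus strand, 1 of 3 windows annotated for Oprm1.
Oprd1: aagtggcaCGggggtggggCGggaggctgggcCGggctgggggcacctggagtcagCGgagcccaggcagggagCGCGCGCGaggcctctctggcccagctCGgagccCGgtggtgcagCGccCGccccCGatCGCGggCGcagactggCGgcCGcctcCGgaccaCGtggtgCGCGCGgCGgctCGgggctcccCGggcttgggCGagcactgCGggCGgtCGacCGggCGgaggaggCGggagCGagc
Oprm1: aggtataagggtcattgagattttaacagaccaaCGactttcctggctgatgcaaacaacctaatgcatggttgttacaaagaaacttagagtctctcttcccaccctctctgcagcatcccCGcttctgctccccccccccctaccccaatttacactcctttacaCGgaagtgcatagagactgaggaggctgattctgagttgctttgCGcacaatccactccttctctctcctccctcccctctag
The Oprd1 window had a GC content of 80% and 34 CG dinucleotides, more GC than 98.8% of the 32851 mouse windows of the same length. The Oprm1 window had a GC content of 50% and 4 CG dinucleotides, near the medians of 52.4% and 6 over all windows. The letters TGACAG, a core sequence bound by Meis proteins, were searched on both strands and were found in 15.9% of all windows, in neither of the sequences shown, in 1 of the 3 windows of Oprl1 and in neither of the 2 windows of Pdyn. Oprk1, Penk and Pnoc had no matching entry.

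Oprd1 encodes the delta receptor and lies on the minus strand of chromosome 4 of mm10 (132110726 to 132144486), with 3 exons in a single annotated transcript. WT libraries gave 217, 269 and 244 counts, Isl1Cre/+ libraries 247, 226 and 231, and mutant libraries 183, 170 and 187. Scaled in this way, the WT values were 8.13, 9.47 and 8.43 CPM, those of Isl1Cre/+ 8.37, 8.04 and 8.11, and those of the mutant 6.85, 6.42 and 7.64. Every mutant library was below every control library, as it was for 0.576% of the 13200 genes tested, and mutant libraries were below all WT libraries for 1.74% and below all Isl1Cre/+ libraries for 4.25% of them.

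Oprd1 was lower in mutant (6.97 ± 0.615 CPM, n = 3) than in WT libraries (8.68 ± 0.705, n = 3), with a log2 fold change of -0.32 (standard error 0.133, 95% confidence interval -0.63 to -0.00) and an edgeR adjusted p of 1. Its unadjusted p fell narrowly on the called side of 0.05 in edgeR's quasi-likelihood test and was also under 0.05 by limma voom (log2 fold change -0.32), the tool of the study, but over 0.05 in DESeq2's Wald test. Of the 5 members tested by edgeR it was the 1 that met the criterion, which 0.318% of all tested genes met in this comparison. Over the alternative settings given below, Oprd1 met it in 5 of 16. It failed when WT library 2, WT library 3, mutant library 1 or mutant library 2 was left out. Against Isl1Cre/+ (8.17 ± 0.171 CPM), which shares the Cre allele with the mutant, the log2 fold change was -0.23 (standard error 0.107, interval -0.48 to 0.02) with an edgeR adjusted p of 1, and the unadjusted p was over 0.05. No member met the criterion there, nor in Isl1Cre/+ against WT, and 0 members had an unadjusted p under 0.05 in these comparisons by edgeR, by DESeq2's Wald test or by limma voom. Of all tested genes, 1.67% and 1.4% met it. Between the control genotypes Oprd1 had a log2 fold change of -0.08 (interval -0.34 to 0.19, edgeR adjusted p = 1).

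When the 3 mutant libraries were compared with all 6 control libraries (8.42 ± 0.536 CPM), Oprd1 was 17.3% below the controls, a log2 fold change of -0.27 (standard error 0.0956, interval -0.49 to -0.06) with an unadjusted p under 0.05. The exact two-sided permutation p over these 9 libraries was 0.0238, the smallest that 3 against 6 can give, and with 3 against 3 it was 0.1, again the smallest possible. As against WT, 1 of 5 members met the criterion, beside 0.674% of all genes. Over the alternative settings Oprd1 met it in 14 of 19, and failed when WT library 2, mutant library 1 or mutant library 2 was left out. After Benjamini-Hochberg adjustment over the 13200 genes, the p of Oprd1 was 1 in each of the 4 comparisons, and over the alternative settings tried it ranged from 0.796 to 1. Meis2 itself was the only gene with an edgeR adjusted p under 0.05 in the comparisons of the mutant. Without WT library 1 and mutant library 2, the log2 fold change was -0.30 (edgeR adjusted p = 0.975) against WT and -0.22 (edgeR adjusted p = 0.999) against both controls. The unadjusted p-values were over 0.05 and the change against both controls was also under 1.2-fold, so the criterion was no longer met. In bulk RNA, fewer cells with a transcript and less of it per cell cannot be told apart.

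**Figure D1:**
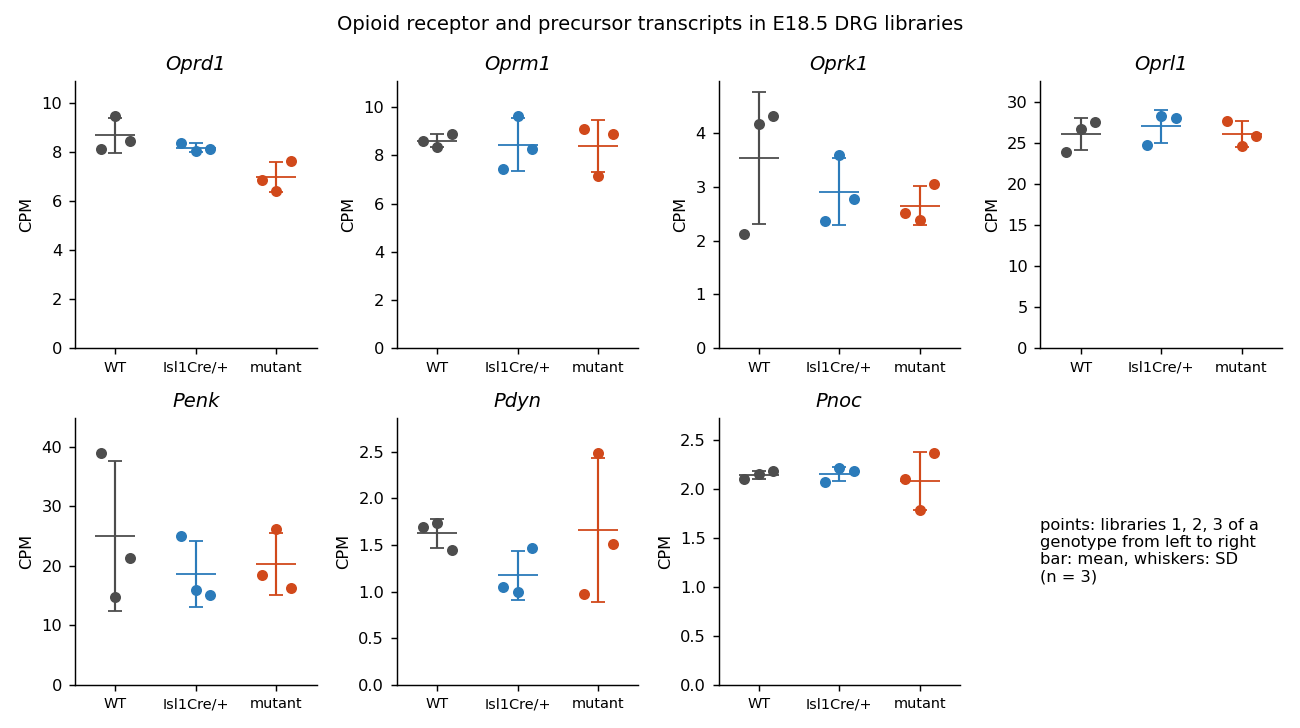
CPM of the 7 members (vertical axes, each from 0) in WT, Isl1Cre/+ and mutant libraries, with points for libraries 1, 2 and 3 from left to right, bars for means and whiskers for SD (n = 3). The 3 mutant values of Oprd1, between 6.42 and 7.64, lie under all control values, while in the other panels the genotypes overlap.

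The spread of Oprd1 within genotypes was about that of counting alone. The chi-square of its counts around the genotype means was 1.03 per degree of freedom, only 3.73% of tested genes had less, and their median was 8.03. This measure grows with depth, and Oprd1 had 170 to 269 counts. Its place among genes with more counts thus does not show that it varied unusually little. The ratio of Oprd1 to Oprm1 counts, which is free of any scaling between libraries, was 0.948, 1.14 and 0.949 in WT libraries, 1.12, 0.834 and 0.983 in Isl1Cre/+ libraries and 0.753, 0.899 and 0.858 in mutant libraries. On this ratio the genotypes overlapped, through Isl1Cre/+ library 2. The ratio of Oprd1 to Oprl1 counts was 0.34, 0.355 and 0.305 in WT libraries, 0.339, 0.284 and 0.288 in Isl1Cre/+ libraries and 0.247, 0.262 and 0.294 in mutant libraries, and mutant library 3 lay among the Isl1Cre/+ libraries.

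Markers of the neurons that carry opioid receptors are given beside this. The summed level of 8 nociceptor markers was 2680, 2880 and 2700 CPM in WT libraries, 2750, 2960 and 2860 in Isl1Cre/+ libraries and 3070, 2420 and 2860 in mutant libraries, so the genotypes overlapped and mutant library 2, with the least Oprd1, had the lowest sum. The sum of 10 mechanoreceptor and proprioceptor markers was 2700 to 3440 CPM in WT libraries, 2720 to 2820 in Isl1Cre/+ libraries and 2500 to 3320 in mutant libraries. Of these 10, 8 had log2 fold changes below 0 in the mutant against WT (median -0.07), 5 against Isl1Cre/+ (0.01) and 8 against both controls (-0.05). Of the 10 sensory neuron markers, 8 were below 0 against WT (median -0.12), 8 against Isl1Cre/+ (-0.05) and 9 against both controls (-0.10). The medians of all tested genes were -0.01, 0.00 and -0.01. Of the nociceptor markers, 1 of 8 met the criterion against WT and the same 1 against both controls, beside 0.318% and 0.674% of all tested genes. It was Trpv1, the capsaicin receptor, with log2 fold changes of -0.39 and -0.34, and -0.28 against Isl1Cre/+, where it did not meet the criterion (edgeR adjusted p = 1 for each). The 8 log2 fold changes against WT had a median of -0.00 and a highest value of 0.18, with 4 below 0. Against Isl1Cre/+ 7 of the 8 were below 0 (median -0.05), and against both controls 7 were (median -0.04). Markers of blood and muscle also differed between the genotypes. The erythroid sum was 891 to 2120 CPM in WT libraries, 341 to 975 in Isl1Cre/+ libraries and 1200 to 3940 in mutant libraries, and the skeletal muscle sum was 99.9 to 793, 57.5 to 132 and 108 to 1840 CPM. By the criterion, 4 of 5 erythroid markers were higher in the mutant than in both controls (median log2 fold change of the list 1.22), 5 of 5 were higher than in Isl1Cre/+ (2.08) and 0 differed from WT (0.69). Of 6 muscle markers tested, 6 were higher than in Isl1Cre/+ (2.99), and 0 met the criterion against both controls (1.60) or WT (0.88). Of 3 sympathetic markers tested, 1 was lower in the mutant than in WT and 1 was higher than in Isl1Cre/+. Of 5 endothelial markers, 1 was lower in the mutant than in Isl1Cre/+, and of 4 cartilage markers tested 1 was higher. Against both controls, 0 markers of these lists met the criterion. Of all tested genes, 0.318% met it against WT, 1.67% against Isl1Cre/+ and 0.674% against both controls. The part of these cells in the difference in Oprd1 was not tested. With scaling to the sensory neuron markers in place of all genes, Oprd1 had a log2 fold change of -0.25 against WT and -0.22 against both controls (edgeR adjusted p = 1 for both). It met the criterion in neither, since the unadjusted p-values were over 0.05 and both changes were under 1.2-fold. Isl1, which was itself lower with the Cre allele, made up 2.02% of these marker counts.

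Oprm1, the mu receptor gene on chromosome 10 (6758506 to 7038198, plus strand, 31 annotated transcripts), had counts of 229, 237 and 257 in WT libraries, 220, 271 and 235 in Isl1Cre/+ libraries and 243, 189 and 218 in mutant libraries. As CPM these were 8.58, 8.35 and 8.88, then 7.45, 9.64 and 8.25, then 9.09, 7.14 and 8.90, and the genotypes overlapped widely. The log2 fold change was -0.04 (interval -0.36 to 0.28, edgeR adjusted p = 1) in the mutant against WT, -0.01 (-0.35 to 0.32) against Isl1Cre/+ and -0.02 (-0.27 to 0.22) against both controls. For the mutant against WT, the interval runs from a fold of 0.781 to 1.21. A stretch of 96 exonic bases of Oprm1, 1.19% of its exons, lies opposite exons of Ipcef1, and whether counting used strand is not stated in the sources used here.

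Oprk1, the kappa receptor gene on chromosome 1 (5588466 to 5606131, plus strand), had the fewest counts of the receptors: 57, 118 and 125 in WT libraries, 70, 101 and 79 in Isl1Cre/+ libraries and 67, 63 and 75 in mutant libraries. WT levels were thus 2.13, 4.16 and 4.32 CPM, Isl1Cre/+ levels 2.37, 3.59 and 2.77, and mutant levels 2.51, 2.38 and 3.06. WT library 1 had the lowest level of all 9 libraries while the other WT libraries had the highest, so WT overlapped the other genotypes through this library. With it, the log2 fold change of the mutant against WT was -0.42 (standard error 0.302, interval -1.12 to 0.29, edgeR adjusted p = 1). Without it, the value was -0.68 (standard error 0.197, edgeR adjusted p = 0.994) and met the criterion, as did Isl1Cre/+ against WT at -0.55 (edgeR adjusted p = 0.786). The criterion was then met by 132 of all genes in the first of these comparisons, against 42 with all libraries. Oprk1 reached the count needed for a test only in WT libraries 2 and 3 (118 and 125) and Isl1Cre/+ library 2 (101). Without WT library 1, the WT libraries left were thus those that brought Oprk1 into the test. This selection favours a higher WT level, so these calls cannot show that Oprk1 was lower in the other genotypes. WT library 1 also stood apart in the whole transcriptome. Against Isl1Cre/+ the mutant had -0.14 (interval -0.67 to 0.40, edgeR adjusted p = 1), and leaving out no single library brought this comparison to the criterion.

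Oprl1, the nociceptin receptor gene on chromosome 2 (181715016 to 181720985, plus strand), was the receptor gene with the most counts: 639, 757 and 799 in WT libraries, 729, 796 and 801 in Isl1Cre/+ libraries and 741, 650 and 635 in mutant libraries. Its levels were 23.9, 26.7 and 27.6 CPM, then 24.7, 28.3 and 28.1, then 27.7, 24.6 and 25.9, with full overlap of the genotypes. The log2 fold change was 0.00 (interval -0.23 to 0.23, edgeR adjusted p = 1) in the mutant against WT, -0.05 (-0.25 to 0.14) against Isl1Cre/+ and 0.06 (-0.18 to 0.30) in Isl1Cre/+ against WT. These were the tightest intervals among the receptors against WT, and they hold a fold between 0.854 and 1.17 for the mutant against WT.

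**Figure D2:**
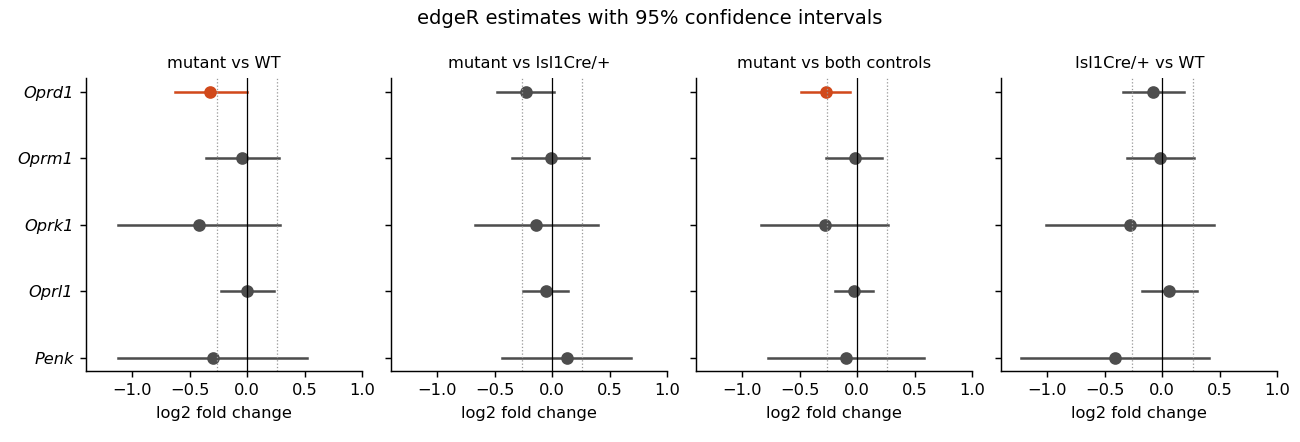
Log2 fold changes (horizontal axes) of the 5 members with enough counts for a test, as edgeR estimates with 95% confidence intervals, in 4 comparisons of genotypes; dotted lines mark a fold change of 1.2 and orange marks genes that met the criterion. Only Oprd1 is orange, at -0.32 against WT and -0.27 against both controls, and the intervals of Oprk1 and Penk are the widest.

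Penk, which encodes the enkephalin precursor and lies on chromosome 4 (4133531 to 4138819, minus strand), varied widely between libraries of a genotype. WT libraries gave 1042, 418 and 615 counts, or 39.0, 14.7 and 21.3 CPM. Isl1Cre/+ libraries gave 738, 446 and 427 counts, or 25, 15.9 and 15.0 CPM. Mutant libraries gave 495, 691 and 399 counts, and here library 2 had 26.1 CPM, library 3 had 16.3 and library 1 lay between them. WT library 1 was highest, followed by mutant library 2 and Isl1Cre/+ library 1, so each genotype had 1 high library. The chi-square of its counts within genotypes, a measure that also grows with depth, was 85.5 per degree of freedom, above that of 93.6% of tested genes. By the coefficient of variation, Penk varied most of the members in Isl1Cre/+ libraries (29.8%) and in WT libraries (50.3%), but in mutant libraries it had 25.3% against 46.5% for Pdyn, whose counting error is larger. The log2 fold change was -0.30 (interval -1.12 to 0.52, edgeR adjusted p = 1) in the mutant against WT, 0.13 (-0.44 to 0.69) against Isl1Cre/+ and -0.41 (-1.23 to 0.41) in Isl1Cre/+ against WT. The sign of each of these turned on single libraries. Without WT library 1 the mutant against WT was at 0.18 (edgeR adjusted p = 0.994) and Isl1Cre/+ against WT at 0.04 (edgeR adjusted p = 0.979), and without mutant library 2 the mutant against Isl1Cre/+ was at -0.09 (edgeR adjusted p = 1). Against both controls the mutant had -0.10, and 0.15 without WT library 1. Without both libraries that stand apart, the values were -0.04 against WT and -0.07 against both controls.

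The libraries with high Penk also had the highest sum over 1 list of glial markers and not over the other. The summed level of 7 genes best known from glia of the central nervous system was 71.6, 43.5 and 46.3 CPM in WT libraries, 73.5, 35.7 and 31.1 in Isl1Cre/+ libraries and 38.2, 70.1 and 47.3 in mutant libraries, so the 3 libraries highest in Penk were the 3 highest in this sum. Slc1a3, a glutamate transporter of astrocytes that satellite glia also express, was at 25.7, 27.2 and 35.6 CPM in WT library 1, Isl1Cre/+ library 1 and mutant library 2 and at 8.53 to 16.5 in the others. Gfap, an intermediate filament of astrocytes, was at 8.84, 11 and 4.46 CPM in these libraries and at 0.178 to 3.43 in the others. Aldh1l1, a folate enzyme of astrocytes, was also higher in these 3 libraries, at 10.5, 10.8 and 11.5 CPM against 7.34 to 10.2. Of the remaining genes of the list, Olig1 and Olig2, which mark oligodendrocyte precursors, were highest of each genotype in its library with high Penk, but Aqp4 and Nkx2-2 were not so in the mutant. Aqp4, a water channel, was at 22.4, 23.4 and 16.8 CPM in the libraries with high Penk and at 14 to 19.4 in the others. Olig2 was at 1.5, 0.339 and 0.529 CPM in them and at 0 in Isl1Cre/+ libraries 2 and 3. The sum of 8 markers of Schwann cells and satellite glia, the glia of the ganglion, was 1070, 1120 and 997 CPM in the libraries with high Penk against 943 to 1110 in the others, with overlap. That of 7 fibroblast markers was 4240, 5140 and 5480 CPM in the libraries with high Penk against 2980 to 4770 in the others. Spinal interneurons also express opioid precursors, and the sum of 12 of their markers was 8.38 to 11 CPM in WT, 4.2 to 4.66 in Isl1Cre/+ and 5.05 to 8.86 in the mutant. The part of other cells in the level of Penk was not tested. A further 233 exonic bases of Penk, 14.3%, lie opposite exons of A830012C17Rik.

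**Figure D3:**
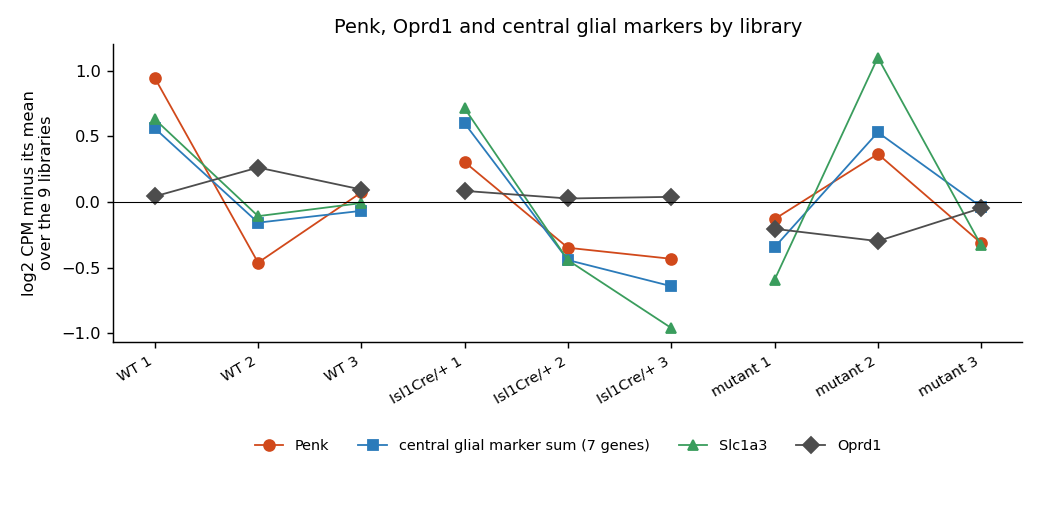
Log2 CPM of Penk, Oprd1, Slc1a3 and the sum of 7 markers of central glia in each of the 9 libraries (horizontal axis), each minus its own mean over the libraries (vertical axis). Penk, Slc1a3 and this sum are highest in WT 1, Isl1Cre/+ 1 and mutant 2, and Oprd1 does not share these peaks.

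Pdyn and Pnoc had too few counts for the fit across genes, for which a gene needed 100 counts or more in some library. Pdyn, the dynorphin precursor gene on chromosome 2 (129686565 to 129699844, minus strand), had counts of 45, 49 and 42 in WT libraries, 31, 28 and 42 in Isl1Cre/+ libraries and 26, 66 and 37 in mutant libraries. Its levels were 1.69, 1.73 and 1.45 CPM, then 1.05, 0.996 and 1.47, then 0.973, 2.49 and 1.51. The mutant held both the lowest and the highest library, so the genotypes overlapped. Exact two-sided permutation tests over libraries gave p = 0.9 for the mutant against WT, 0.5 against Isl1Cre/+ and 0.2 for Isl1Cre/+ against WT, where 3 libraries against 3 cannot go under 0.1.

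Pnoc, the nociceptin precursor gene on chromosome 14 (65400673 to 65425472, minus strand), had counts of 56, 61 and 63 in WT libraries, 61, 62 and 62 in Isl1Cre/+ libraries and 56, 47 and 58 in mutant libraries. Its level was 2.14 ± 0.0405 CPM in WT libraries, 2.15 ± 0.0738 in Isl1Cre/+ libraries and 2.08 ± 0.296 in mutant libraries (n = 3 each), and the genotypes overlapped. The control libraries varied less than counting alone would give, with an SD of 2.49% of the mean over the 6 controls against 12.8% from counting. The exact two-sided permutation p was 0.7 against WT, 0.8 against Isl1Cre/+ and 0.548 for the mutant against both controls, where the smallest possible p is 0.0238. Pomc, the precursor gene that gives beta-endorphin, had 12 to 28 counts per library.

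Between genes, levels were compared as CPM per kilobase of annotated exon. Penk was highest at 13 ± 4.82 over the 9 libraries, followed by Oprl1 at 7.03 ± 0.448, Oprd1 at 1.97 ± 0.223, Oprm1 at 1.05 ± 0.0983, Pnoc at 0.984 ± 0.073, Pdyn at 0.514 ± 0.165 and Oprk1 at 0.331 ± 0.0885. Penk was above Oprl1, and Oprl1 above Oprd1, in 9 of 9 libraries under either definition of length. Oprd1 was above Oprm1 in 9 of 9 libraries on this scale. Oprm1 and Pnoc, Pnoc and Pdyn, and Pdyn and Oprk1 had overlapping ranges over the libraries, and of these pairs Oprm1 and Pnoc were closest. The places of Oprm1, Pdyn and Oprk1 turned on the length used. The exons of the 31 transcripts of Oprm1 cover 8037 bases, but its longest transcript has 2420, and per kilobase of the longest transcript Oprm1 stood at 3.5 and was above Oprd1 in each library. Oprk1, at 0.649 on that scale, was above Pdyn in 6 of 9 libraries.

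**Figure D4:**
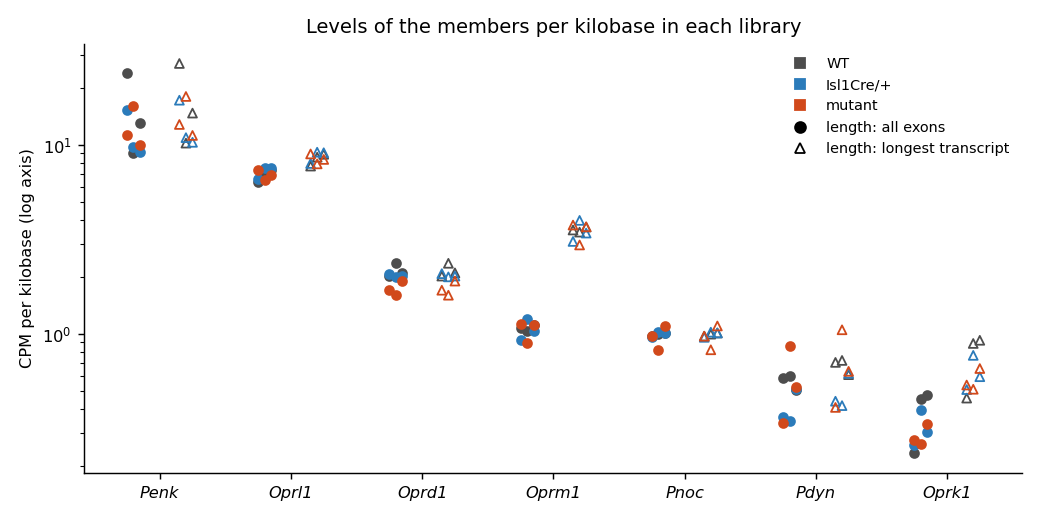
Level of each member in CPM per kilobase (log axis) in each of the 9 libraries, coloured by genotype, with filled circles for the length of all annotated exons and open triangles for the longest transcript. Penk and Oprl1 lead on both scales, while Oprm1 moves from 1.05 to 3.5 between them and so changes places with Oprd1.

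The genes whose levels moved most like those of a member over the 9 libraries were found by the root mean square (RMS) difference of mean-centred log2 CPM. For Oprd1, whose own RMS variation was 0.155, these were Gm20163 at 0.0624, Xkr7 at 0.0635 and Prdm10 at 0.0731. For Oprm1 (own variation 0.128) they were Plppr4 (0.0458), Myo5a (0.0466) and Homer2 (0.0535), and for Oprl1 (0.0871) they were Ric3 (0.0242), Usp32 (0.0277) and G3bp2 (0.0297). For Oprk1, whose own variation was 0.34, they were Gm20597 at 0.113, Ftl1-ps1 at 0.118 and Snhg4 at 0.121, and for Penk, with 0.441, they were Nme4 at 0.145, Rps27rt at 0.168 and Mdk at 0.172. The distances are larger for members that vary more and are not ranked between members. The libraries are shared by all genes, so likeness includes what depth and dissection have in common.

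Around the receptors, 75 genes of opioid signalling and peptide turnover were examined, of which 67 had enough counts. By edgeR, 0 met the criterion in the mutant against WT, against both controls or in Isl1Cre/+ against WT, and 0 had an unadjusted p under 0.05 there, as was also so by DESeq2's Wald test and limma voom. The shares of all tested genes that met it by edgeR were 0.318%, 0.674% and 1.4%. In the mutant against Isl1Cre/+, 1 gene met it by edgeR, beside 1.67% of all tested genes. By DESeq2, 4 of the 67 (Ece1, Gng2, Gng5 and Rgs5) had an unadjusted p under 0.05 there, beside 2.48% of all tested genes, and 1 met the criterion, beside 1.79%. By limma voom 0 did either. The median log2 fold change of the 67 was -0.03 against WT and -0.03 against Isl1Cre/+, beside -0.01 and 0.00 for all tested genes. The gene that met the criterion was Gng5, a G protein gamma subunit, with 10.4, 12.5 and 12.6 CPM in Isl1Cre/+ and 13.8, 22.6 and 13.5 in mutant libraries. Mutant library 2 was the highest of all. The log2 fold change of Gng5 was 0.49 (standard error 0.207), and 0.22 without that library (edgeR adjusted p = 1 for both). Gng5 also failed the criterion when any single Isl1Cre/+ library was left out, at 0.41 to 0.54, and met it without mutant library 1 (0.61) or mutant library 3 (0.62). Against both controls, Gng5 met it without WT library 3 (0.48), mutant library 1 (0.52) or mutant library 3 (0.53), but not without any other single library. In Isl1Cre/+ against WT it did so only without WT library 1 (-0.37).

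Genes for the transducers of opioid signals had high levels across the libraries. Per kilobase of exon, the inhibitory alpha subunit genes Gnai2 and Gnao1 stood at 126 ± 16.2 and 120 ± 8 CPM over the 9 libraries, and the beta-gamma genes Gng3 and Gnb1 at 257 ± 9.94 and 239 ± 12. Their log2 fold changes in the mutant against both controls lay between -0.08 and -0.03. Of the 15 RGS genes, whose products end G protein signals, Rgs4 led with 328 ± 25.6 and Rgs10 followed with 53.1 ± 3.8 CPM per kilobase, with log2 fold changes of 0.10 and 0.12 that did not pass the test.

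Among the effectors, the leading genes for calcium channels were above those for G protein-gated potassium (GIRK) channels. Cacna1b, the N-type channel that opioids inhibit at sensory terminals, had 27.4 ± 2.71 CPM per kilobase and Cacna1a, the P/Q-type channel, 9.5 ± 1.11. Of 4 GIRK genes, Kcnj3 was the 1 with enough counts, at 5.42 ± 0.567 CPM per kilobase. Kcnj5 and Kcnj6 had at most 7 and 12 counts in any library and Kcnj9 had 6 to 19. The adenylyl cyclase genes Adcy1 and Adcy2 stood at 17.6 ± 1.2 and 15.5 ± 0.784 CPM per kilobase, with log2 fold changes of -0.05 in the mutant against both controls.

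Genes that switch off or sort the receptors, and those that make or break opioid peptides, also held no member that met the criterion. The receptor kinase gene Grk2 had 35.7 ± 1.99 and the arrestin gene Arrb1 21.5 ± 0.917 CPM per kilobase, and the sorting genes Gprasp1, whose product directs delta receptors to lysosomes, and Gprasp2 had 59 ± 4.37 and 28.4 ± 1.78. Cpe, the carboxypeptidase that trims peptide precursors, stood at 303 ± 13.4 and Pcsk1n, an inhibitor of the prohormone convertase PC1/3, at 83.5 ± 4.78. Of the peptidases, Ece1 was highest, followed by Dpp3 at 10.3 ± 0.603 CPM per kilobase, and Ece1 had a log2 fold change of -0.20 (edgeR adjusted p = 1) in the mutant against Isl1Cre/+.

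**Figure D5:**
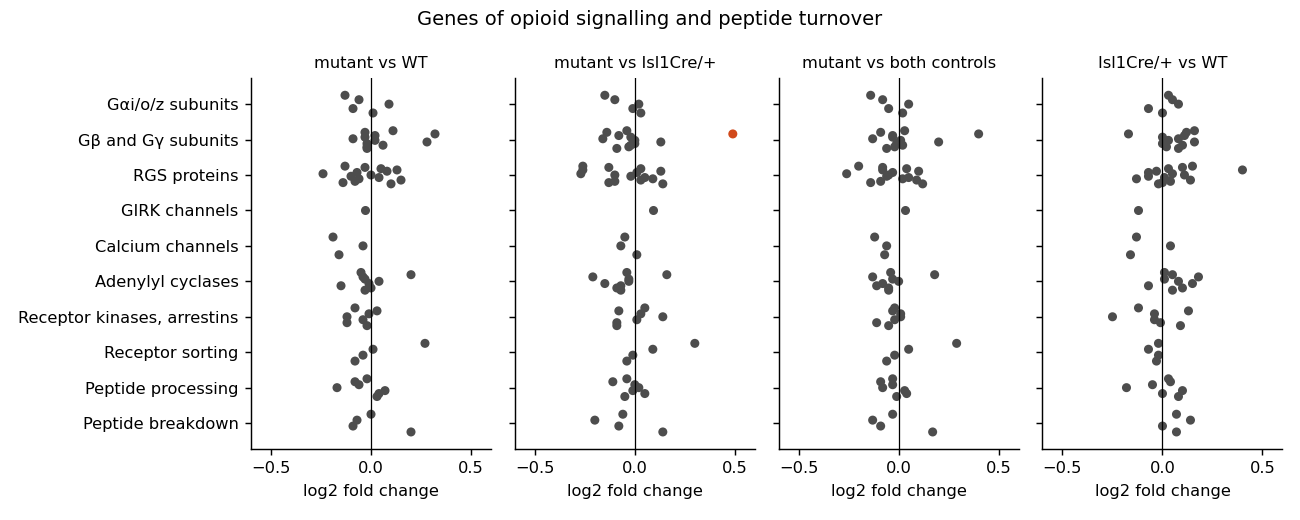
Log2 fold changes (horizontal axes) of the 67 tested genes of opioid signalling and peptide turnover, by list (rows), in 4 comparisons of genotypes, with a point per gene and orange for genes that met the criterion. The points gather around 0 in each comparison, and the single orange point is Gng5 at 0.49 in the mutant against Isl1Cre/+.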

How the data were processed

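The authors made poly(A) libraries that carry unique molecular identifiers. Their single-end reads were aligned with STAR 2.7.10 to mm10, PCR copies were removed by UMI-tools, and uniquely mapped reads were assigned to genes with HTSeq 0.6. The deposited values used here are these counts, without normalization. The table also holds the authors' comparisons of each pair of genotypes by limma voom (log2 fold changes, mean expression, test statistics and p-values), which were not used.

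Genotypes were taken from the labels. The 13200 genes that reached 100 counts in any of the 9 libraries were tested with edgeR 4.0.16 in R 4.3.3 (TMM, two-sided quasi-likelihood test, Benjamini-Hochberg adjustment over all genes), with each pair of genotypes fitted alone and the mutant also fitted against all 6 controls. CPM use TMM factors over the 9 libraries. Members under the filter were compared by exact permutation. Exons, positions and lengths are those of GENCODE M21 on GRCm38 (mm10), where 55154 of 55247 identifiers matched, 54855 of them with their version. Likeness used log2(CPM + 0.1). Depth gave 47 to 271 counts for Oprd1, Oprm1 and Pnoc, so counting error limits these values. The tests were checked on simulated counts.

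The members and gene lists were chosen with earlier results of these data known. Named genes were the members, Meis2, Isl1, the 2 most abundant genes per kilobase of each pathway list, pathway genes that met the criterion and the 3 genes most like each member. Trpv1, the named central glial genes, Gng2, Rgs5, the remaining GIRK genes and genes overlapping a member were named after their values were seen. Alternatives covered scaling (DESeq2 1.42.0 size factors, library size, sensory neuron markers), the filter, the DESeq2 Wald test, limma voom, joint fits, the replicate number as a block and libraries left out. Replicate numbers were not taken as pairs.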

Additional observations from a re-analysis of the deposited data

Results flagged for a closer look

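In the 6 control libraries, WT library 2 had the highest level of Oprd1, 9.47 CPM, while the other 5 lay between 8.04 and 8.43. The gap between this library and the next made up 0.726 of the whole range of the controls, above the critical value of 0.625 for 6 samples. Of the 7 members 1 was singled out in this way, and chance alone does so in about 5% of groups. Without WT library 2, the log2 fold change of Oprd1 was -0.25 in the mutant against WT and -0.24 in the mutant against both controls (edgeR adjusted p = 1 for both). The criterion was met in neither, since both changes were under 1.2-fold, and against WT the unadjusted p was also over 0.05.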

How the results depend on the processing

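Oprd1 met the criterion in 5 of 16 alternatives for the mutant against WT (log2 fold change -0.39 to -0.24) and in 14 of 19 against both controls (-0.34 to -0.21), was negative in each of them, and met it in 1 of 15 against Isl1Cre/+. For the mutant against WT, the number of members that met the criterion was 0 rather than 1 with DESeq2 size factors (Oprd1 -0.31), library size only (-0.31), scaling to the sensory neuron markers (-0.25), no filter on low counts (-0.30), the DESeq2 Wald test (-0.31) or the replicate block (-0.32, edgeR adjusted p = 1), and 0 to 2 when single libraries were left out. The replicate block changed no other call of a member, and all genes that met the criterion became 31, 177, 236 and 62 with it, from 42, 221, 185 and 89 for the mutant against WT, the mutant against Isl1Cre/+, Isl1Cre/+ against WT and the mutant against both controls. The deviations of same-numbered libraries correlated from -0.553 to 0.386 across genes, so the numbers were not taken as pairs. Against both controls it was 0 with scaling to the sensory neuron markers (-0.22, edgeR adjusted p = 1), 0 when WT library 2, mutant library 1 or mutant library 2 was left out (0 to 1 over all left-out libraries), and 0 without WT library 1 and mutant library 2, an alternative chosen after seeing the data. Against Isl1Cre/+ it was 0 to 1, and 1 without mutant library 3 (Oprd1 -0.30, edgeR adjusted p = 0.919). Isl1Cre/+ against WT gave 0 to 1, with Oprk1 added without WT library 1 and Penk turning from -0.41 to 0.04 (-0.67 to 0.04 over single libraries left out). Oprk1 against WT met the criterion without WT library 1 (-0.68) and without both libraries that stand apart (-0.60, edgeR adjusted p = 0.975), and it had too few counts for the fit on genes with at least 100 counts in every library. In both settings the WT libraries left were those that brought Oprk1 over the count filter, so neither can show a level below WT. The cause of these shifts was not tested.

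The number of all genes that met the criterion in the mutant against WT, 42, was 12 with neuron marker scaling, 408 with no filter, 67 to 132 without WT library 1, WT library 3, mutant library 1 or mutant library 2, and 182 without both libraries that stand apart. Against Isl1Cre/+ it was 221, and 1028 with no filter, 134 with at least 100 counts in every library and 407 without mutant library 1. For Isl1Cre/+ against WT it was 185, and 845, 108, 340 without WT library 1 and 102 without Isl1Cre/+ library 3. Against both controls it was 89, and 830 with no filter and 60 to 363 without single libraries, above 89 in 4 of 9 cases. Per kilobase of the longest transcript, Oprm1 stood at 3.55, 3.49 and 3.46 CPM in WT, Isl1Cre/+ and mutant libraries, Oprl1 at 8.4, 8.72 and 8.4, and Oprk1 at 0.757, 0.623 and 0.567, and Pdyn stood at 0.679 in WT.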
